A study of Homo sapiens with 4 samples.

Results

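GATA2 peaks in gene deserts were taken from the ChIP-seq peak lists of asynchronous and mitotic K562 cells, an established human cell line from chronic myeloid leukaemia that grows in suspension and makes GATA2 itself. A peak was counted as a desert peak when its midpoint lay more than 100 kb from the transcription start site (TSS) of every protein-coding transcript and outside every protein-coding gene body. Of the 31777 asynchronous peaks, 3836 met this rule, and of the 1648 mitotic peaks, 211 did. The ChIP used an antibody against GATA2 (sc-9008) on cells fixed with disuccinimidyl glutarate and then formaldehyde, and the study asked which interphase sites keep GATA2 through mitosis. The asynchronous cells were an untreated culture. The mitotic cells came from nocodazole-arrested cultures, were sorted as MPM-2+ and were pooled over several sorting rounds, with a small remainder of asynchronous cells by the study's account. There was 1 GATA2 library per condition, so no difference between conditions has a replicate check, and the 2 input libraries were not used here. K562 is 1 aneuploid line, and copy number was not used. In brackets after a share stands its 95% exact binomial interval, and after a difference of shares its Newcombe interval. Both run over the peaks of 1 library and cover counting error only.

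Gene deserts are long stretches of a genome without protein-coding genes. Many hold enhancers, stretches of regulatory DNA that act on a promoter far along the chromosome, and some of the best-known ones lie beside genes for developmental regulators. GATA2 is a zinc-finger transcription factor of blood stem and progenitor cells that binds DNA at GATA sequences, often next to an E-box bound by TAL1. In mitosis most factors leave the condensed chromosomes, and a site that keeps its factor is called bookmarked. Here an asynchronous peak is called bookmarked when it shares at least 1 base with a mitotic peak, and a mitotic peak that shares no base with an asynchronous peak is called mitotic-unique.

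The label was checked against all other gene types of the annotation, since the rule uses protein-coding genes only. Of the 3836 asynchronous desert peaks, 1610 lay inside a long non-coding RNA (lncRNA) gene, which is 42.0% (40.4% to 43.6%), while 2164, or 56.4%, lay in no annotated gene of any kind. A further 61 lay in a pseudogene outside lncRNA genes. Of the 211 mitotic desert peaks, 96 lay in a lncRNA gene and 112 in no gene. The remaining 3 were 1 peak in a pseudogene and 2 in IGHG1, an immunoglobulin constant-region gene that the annotation does not class as protein-coding. With lncRNA genes counted like protein-coding ones, 919 asynchronous and 47 mitotic peaks met the rule, so most desert peaks are remote from protein-coding genes but not from every annotated transcript.

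The sequences below show what GATA2 peaks in deserts look like at the level of bases. The first 6 come from the 6 deserts with most mitotic peaks, each the mitotic peak of at most 300 bp that shares bases with an asynchronous peak and has most GATA matches. The 7th is, among shared mitotic peaks of at most 300 bp with the GATA and E-box composite, the one farthest from a TSS. Then follow the widest mitotic-unique peak with a GATA match, the widest one without, and the asynchronous peak of at most 300 bp with most GATA matches. All are plus-strand hg38 sequence in lower case. Capitals mark GATA with A or T before it and A or G after it on either strand, the composite (CTG and GATAA separated by 8 bases) and runs of at least 3 GATA units.
LPIN1–TRIB2, chr2:11940272-11940477: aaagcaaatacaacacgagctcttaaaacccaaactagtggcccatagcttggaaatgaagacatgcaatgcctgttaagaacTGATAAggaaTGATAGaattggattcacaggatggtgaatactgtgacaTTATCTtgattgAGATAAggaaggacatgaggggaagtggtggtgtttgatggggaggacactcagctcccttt
TNP1–TNS1, chr2:217218829-217219087: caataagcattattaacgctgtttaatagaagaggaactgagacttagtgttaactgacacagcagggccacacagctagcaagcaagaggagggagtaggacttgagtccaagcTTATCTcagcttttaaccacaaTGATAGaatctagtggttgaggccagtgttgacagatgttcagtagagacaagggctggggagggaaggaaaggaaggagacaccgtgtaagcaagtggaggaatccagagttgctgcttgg
TBL1XR1–KCNMB2, chr3:177878245-177878535: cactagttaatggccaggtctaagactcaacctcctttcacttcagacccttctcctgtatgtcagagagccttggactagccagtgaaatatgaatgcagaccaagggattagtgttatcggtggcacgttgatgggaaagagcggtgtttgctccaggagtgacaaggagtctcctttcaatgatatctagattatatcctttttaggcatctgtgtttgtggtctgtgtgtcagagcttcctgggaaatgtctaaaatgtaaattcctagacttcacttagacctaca
CDH9–CDH6, chr5:29984187-29984440: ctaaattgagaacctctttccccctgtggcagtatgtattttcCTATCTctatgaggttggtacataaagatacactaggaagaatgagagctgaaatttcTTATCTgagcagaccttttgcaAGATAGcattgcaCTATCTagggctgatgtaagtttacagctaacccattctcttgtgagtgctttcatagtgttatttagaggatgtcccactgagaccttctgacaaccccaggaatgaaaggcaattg
BAMBI–LYZL1, chr10:28839738-28839929: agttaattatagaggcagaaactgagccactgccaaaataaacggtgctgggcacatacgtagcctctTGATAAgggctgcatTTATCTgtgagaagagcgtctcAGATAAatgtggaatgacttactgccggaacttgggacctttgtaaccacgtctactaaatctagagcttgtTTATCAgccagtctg
SLC7A11–NOCT, chr4:138437382-138437556: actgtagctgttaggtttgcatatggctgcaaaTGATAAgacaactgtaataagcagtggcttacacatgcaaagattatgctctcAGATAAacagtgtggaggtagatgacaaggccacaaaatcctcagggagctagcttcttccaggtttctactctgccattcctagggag
PRKX–NLGN4X composite, chrX:4710616-4710887: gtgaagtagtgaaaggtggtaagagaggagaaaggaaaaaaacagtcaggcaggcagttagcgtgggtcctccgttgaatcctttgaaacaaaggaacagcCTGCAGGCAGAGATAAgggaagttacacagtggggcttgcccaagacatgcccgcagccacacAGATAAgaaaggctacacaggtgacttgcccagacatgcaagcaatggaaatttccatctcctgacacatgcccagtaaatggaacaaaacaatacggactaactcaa
FOXL1–C16orf95 mitotic-unique, chr16:86821887-86822174: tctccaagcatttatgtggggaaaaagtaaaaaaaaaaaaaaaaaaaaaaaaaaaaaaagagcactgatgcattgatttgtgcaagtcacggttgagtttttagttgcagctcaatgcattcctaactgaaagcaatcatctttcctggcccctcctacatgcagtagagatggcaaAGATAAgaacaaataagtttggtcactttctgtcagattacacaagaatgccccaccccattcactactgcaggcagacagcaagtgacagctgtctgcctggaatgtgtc
MTRR–SEMA5A mitotic-unique, chr5:8450550-8450832: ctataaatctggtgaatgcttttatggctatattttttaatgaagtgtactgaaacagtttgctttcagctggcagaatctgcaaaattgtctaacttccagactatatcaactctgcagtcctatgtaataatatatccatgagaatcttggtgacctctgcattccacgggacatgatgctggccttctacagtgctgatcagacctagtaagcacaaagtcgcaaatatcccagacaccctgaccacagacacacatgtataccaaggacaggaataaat
SPOPL–NXPH2 asynchronous only, chr2:138647694-138647960: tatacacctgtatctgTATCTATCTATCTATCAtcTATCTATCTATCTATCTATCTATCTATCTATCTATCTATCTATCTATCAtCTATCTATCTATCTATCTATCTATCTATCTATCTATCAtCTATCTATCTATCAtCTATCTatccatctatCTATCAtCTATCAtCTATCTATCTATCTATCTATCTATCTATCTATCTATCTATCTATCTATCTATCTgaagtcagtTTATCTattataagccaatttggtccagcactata

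The peaks of the LPIN1–TRIB2, CDH9–CDH6 and BAMBI–LYZL1 deserts held 4 GATA matches each, and those of TNP1–TNS1 and SLC7A11–NOCT held 2. The TBL1XR1–KCNMB2 peak, 291 bp wide, held no such match although both lists called it, and its asynchronous interval of 500 bp held none either. Its printed sequence does hold the shorter string GATAA on the minus strand. In the PRKX–NLGN4X peak, 4710616 to 4710887 on chromosome X, the composite ends in 1 of 2 GATA matches. The SPOPL–NXPH2 peak is almost wholly a repeat of the 4 bases GATA read on the minus strand, with 26 matches in 267 bp, and was called in asynchronous cells only.

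Desert sequence held far fewer peaks per Mb than the rest of the genome in both conditions. Deserts made up 946.8 Mb, or 32.2% of the known hg38 sequence, with a GC content of 38.3% against 42.1% elsewhere. They held 4.05 asynchronous peaks per Mb against 14.0 per Mb elsewhere, so the rest of the genome was 3.46 times as dense. For mitotic peaks the densities were 0.223 and 0.722 per Mb, a ratio of 3.24. Desert peaks were 12.1% of the asynchronous list and 12.8% of the mitotic list, so they made up a like part of both lists. The density was below that of the rest on all 23 chromosomes other than Y. It ran from 1.86 peaks per Mb on chromosome 18 to 7.40 on chromosome 6, close to the 7.38 of chromosome 12. The lists placed 3 asynchronous peaks on chromosome Y, all of them desert peaks, and no mitotic peak. Whether K562 carries a chromosome Y was not examined here, so these 3 may not be sites bound in these cells. The 946.8 Mb include 16.7 Mb of chromosome Y. Without chromosome Y the desert density was 4.12 asynchronous peaks per Mb. The mappable share of each sequence was not measured, and its part in these densities was not tested.

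The peaks were spread over many deserts, and longer deserts were sparser. Of 2079 deserts with known sequence, 929 held at least 1 asynchronous peak and 148 at least 1 mitotic peak. Deserts of up to 100 kb, which are short because the 100 kb margins around genes are cut off, held 9.93 asynchronous peaks per Mb, those of 100 to 300 kb held 7.31, those of 300 to 1000 kb held 4.97 and those over 1000 kb held 2.63. The bookmarked share did not follow this order, with 3.82% (1.99% to 6.58%), 4.07% (2.74% to 5.80%), 5.87% (4.70% to 7.24%) and 5.09% (4.01% to 6.37%) in the same 4 classes, whose intervals overlap. The 94 deserts with at least 10 asynchronous peaks held 1580 of the 3836. In 34 of these 94, no peak was bookmarked. Mitotic peaks came 1 to a desert in 110 deserts, and the other 38 deserts held 101 of the 211.

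The desert with most asynchronous peaks lies between MYC, the growth-promoting transcription factor, and GSDMC, a gasdermin, on chromosome 8, with 50 asynchronous peaks, 27.2 per Mb, and 2 mitotic ones inside the lncRNA gene PVT1. The mitotic peak from 127960245 to 127960843 held 7 GATA matches and the one from 128044955 to 128045237 held 4.

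Of the 8 deserts with most asynchronous peaks, 4 others held at most 2 mitotic peaks each. CD83–JARID2 on chromosome 6 held 42 asynchronous peaks and 1 mitotic peak, beside JARID2, a subunit of the Polycomb repressive complex that methylates histone H3. MID1IP1–BCOR on chromosome X held 37 asynchronous peaks and no mitotic one, beside BCOR, a transcriptional corepressor mutated in leukaemias, and its bookmarked share of 0 has an upper limit of 9.49%. The bookmarked share of CD83–JARID2 was 2.38% (0.0603% to 12.6%), and both intervals include the 5.04% of all asynchronous peaks. CTNNA2–SUCLG1 on chromosome 2, beside an alpha-catenin gene, had 34 asynchronous and 2 mitotic peaks. FAT4–INTU on chromosome 4, beside the giant cadherin gene FAT4, had 30 and 2.

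LPIN1–TRIB2 on chromosome 2, from 11887131 to 12616934, was the desert with most mitotic peaks. TRIB2 encodes a pseudokinase that can drive acute myeloid leukaemia in mice, and LPIN1 an enzyme of lipid synthesis. The desert held 30 asynchronous peaks, and 9 of them were bookmarked, which is 30.0% (14.7% to 49.4%). All 9 mitotic peaks lay inside the lncRNA gene MIR3681HG and each shared bases with 1 asynchronous peak. They lay 153.2 to 428.7 kb from the nearest protein-coding TSS and were 169 to 567 bp wide, while their asynchronous partners were 563 to 1038 bp wide. The one with most GATA matches, from 12074079 to 12074641, held 5 of them with 1 composite, 1 RUNX core and 1 AP-1 string, and its asynchronous peak of 1038 bp held 6. A second composite lay in the peak from 12514750 to 12515115, which had 3 GATA matches. The 9 sites therefore differed in width and in motif number within 1 desert, and each of them had at least 1 GATA match.

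TNP1–TNS1, also on chromosome 2, held 36 asynchronous peaks, 46.0 per Mb, and 5 mitotic ones. Of the asynchronous peaks 13.9% were bookmarked (4.67% to 29.5%). TNS1 encodes tensin, which ties integrins to actin. Of its mitotic peaks, 4 lay in the lncRNA gene DIRC3-AS1 and 1, from 217362662 to 217363155, in DIRC3. That last peak held 6 GATA matches, and its asynchronous partner of 1330 bp held 11.

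The other deserts with most mitotic peaks had 3 or 4 each. TBL1XR1–KCNMB2 on chromosome 3, beside a subunit gene of the NCoR corepressor complex, had 28 asynchronous and 4 mitotic peaks. BAMBI–LYZL1 on chromosome 10, beside a decoy receptor gene of TGF-beta signalling, had 20 and 4. Its density was 48.6 asynchronous peaks per Mb. SLC7A11–NOCT on chromosome 4, beside the cystine transporter gene SLC7A11, had 19 and 4. CDH9–CDH6 on chromosome 5, between cadherin genes, had 21 and 4 over 3872.5 kb, only 5.42 per Mb. CITED2–NMBR on chromosome 6, beside CITED2, a CBP/p300-binding coregulator needed by blood stem cells, had 35 and 3. PCDH17–DIAPH3 on chromosome 13, between a protocadherin and a formin gene, had 21 and 3. In the 8 deserts with most mitotic peaks, ties broken by the number of asynchronous peaks, every mitotic peak overlapped an asynchronous one. These deserts were picked for their number of mitotic peaks, so their bookmarked shares describe that choice.

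At the distance of 100 kb the bookmarked share of desert peaks was close to that of other peaks. Of the 3836 asynchronous desert peaks, 195 were bookmarked, which is 5.08% (4.41% to 5.83%), against 5.04% of all asynchronous peaks. The difference from all other asynchronous peaks was 0.0550 percentage points (-0.647 to 0.837). With a distance of 50 kb in the rule it was 0.922 points (0.301 to 1.59), so the interval then excluded 0, while at 200 and 500 kb it included it. Among peaks closer to genes, 5.73% were bookmarked outside gene bodies at 3 to 100 kb from a TSS (near intergenic peaks), 4.87% inside gene bodies more than 3 kb from a TSS (genic peaks) and 4.24% within 3 kb of a TSS (promoter peaks). The desert share was 0.645 points below that of near intergenic peaks (interval of desert minus near -1.47 to 0.232) and 0.848 points above that of promoters (-0.0375 to 1.76). Both intervals include 0 and leave room for a difference of more than 1 point. Distance gave no steady order within deserts. From 100 to 150 kb the share was 4.30% (46 of 1069), from 150 to 200 kb 4.97% (29 of 584), from 200 to 300 kb 6.20% (47 of 758), from 300 to 500 kb 4.67% (31 of 664) and beyond 500 kb 5.52% (42 of 761), with overlapping intervals. On either side of the threshold, 22 of 285 peaks outside gene bodies at 90 to 100 kb and 10 of 276 at 100 to 110 kb were bookmarked, with median widths of 409 and 384 bp.

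**Figure D1:**
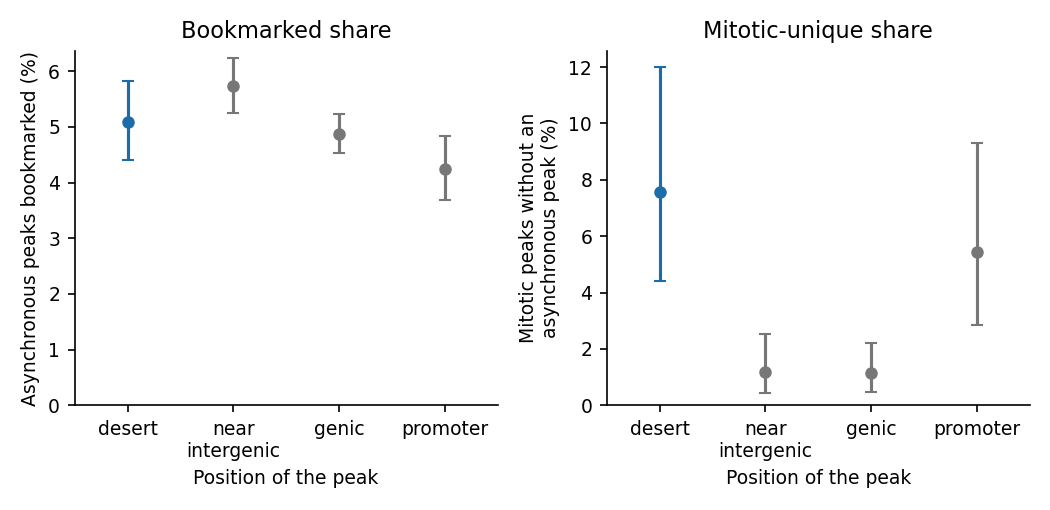
Left, share of asynchronous peaks that were bookmarked (y axis, percent) by position (x axis). Right, share of mitotic peaks that were mitotic-unique. Points are shares and bars 95% exact binomial intervals over the peaks of 1 library. The desert point is 5.08% on the left, among shares of 4.24% to 5.73%, and 7.58% on the right, above 1.18% for near intergenic and 1.13% for genic peaks and beside 5.43% for promoters.

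The width of a peak separated bookmarked from other desert peaks far more than its place did. The median width was 673 bp for bookmarked desert peaks, with quartiles at 561 and 837.5 bp, and 370 bp for desert peaks that were not bookmarked, with quartiles at 265 and 493 bp. No desert peak of the narrowest decile of asynchronous peaks, 77 to 205 bp, was bookmarked (0 of 386, upper limit 0.951%), whereas 95 of 395 in the widest decile, 681 to 2590 bp, were, or 24.1% (19.9% to 28.6%). Other peaks of that decile stood at 24.7% (23.1% to 26.3%). Over all desert peaks the median was 381.5 bp, with quartiles at 271 and 515 bp, and over all other asynchronous peaks 378 bp, with quartiles at 267 and 518 bp. When other peaks were weighted to the width deciles of the desert peaks, the difference in bookmarked share was 0.0138 points. Width is the one measure of a peak's size in these lists, and a narrow peak that is missing from the mitotic list may lie under its limit of detection.

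Shared mitotic peaks were narrow parts of their asynchronous partners, in deserts as elsewhere. Of the 195 mitotic desert peaks that shared bases with an asynchronous peak, 178 lay wholly inside it, or 91.3% (86.4% to 94.8%), and 5 were wider than it. Their median width was 44.4% of the asynchronous width (quartiles 32.6% and 60.4%), against 45.6% for the 1411 shared pairs outside deserts. The mitotic intervals held 515 GATA matches and their asynchronous partners' intervals 745, a ratio of 69.1%, close to the 68.8% outside deserts. Some of the 515 can lie outside the partner, since not every mitotic peak lay wholly inside it. The ratio of matches was higher than the median ratio of widths.

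Mitotic-unique peaks were more frequent in deserts than among all other mitotic peaks. In deserts 195 of 211 mitotic peaks shared bases with an asynchronous peak, or 92.4% (88.0% to 95.6%), against 97.5% in the whole list, and 16 were mitotic-unique, or 7.58% (4.40% to 12%), against 2.55% in the whole list. Outside deserts 26 of 1437 were, and the difference was 5.77 points (2.79 to 10.2). Deserts so held 16 of the 42 mitotic-unique peaks, 38.1% (23.6% to 54.4%), and 12.1% of the shared mitotic peaks (10.6% to 13.8%). The excess was not particular to deserts. Promoter peaks were mitotic-unique in 5.43% (2.84% to 9.29%), and the desert share was 2.15 points above that with an interval of -2.62 to 7.10. Near intergenic peaks stood at 1.18% (0.433% to 2.54%).

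The 16 mitotic-unique desert peaks were narrow and poor in GATA sequence beside the shared ones. Their median width was 169 bp (84 to 288 bp), against 304 bp for the shared mitotic desert peaks. A GATA match was found in 7 of 16, or 43.8% (19.8% to 70.1%), against 188 of 195 shared ones, or 96.4% (92.7% to 98.5%). Their flanks, equally wide windows 5 kb away on both sides, held one in 9 of 32, or 28.1%, a share inside the interval of the peaks, so a higher GATA content than in the surroundings was not detectable with 16 peaks. The nearest asynchronous peak lay at a median of 116.2 kb (2.29 to 509.3 kb). The study reports low read coverage at the mitotic-unique peaks of the whole list and left them out of its later analyses. It also states that none was at a gene known to act in haematopoiesis. No read coverage was analysed here, so the 16 desert peaks were not checked for signal in the asynchronous library.

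The widest of them lie beside genes of many kinds, among them transcription factors. The widest, 288 bp on chromosome 16 from 86821887 to 86822174, lies between FOXL1, a forkhead factor of gut mesenchyme, and C16orf95, and held 1 GATA match. The peak on chromosome 5 from 88585778 to 88586050 lies between TMEM161B and MEF2C, a MADS-box factor of muscle, neural and blood cells, inside the lncRNA gene LINC00461, with 1 match. Both hold a GATA match, which several of the others lack. The peak between MTRR and SEMA5A on chromosome 5, printed above, has none and lies within 1 kb of a transcript start of the lncRNA gene MIR4458HG. Those of MTCL1–NDUFV2 on chromosome 18, BMPER–NPSR1 on chromosome 7 and ATP10B–GABRB2 on chromosome 5 have none either. The peak of NRP1–PARD3 on chromosome 10 has 3, that of SGO1–ZNF385D on chromosome 3 has 1, and the one at the start of chromosome 22 before OR11H1 has 2. A pair named after its values were seen lies in IGHG1 on chromosome 14, from 105741680 to 105741792 and from 105742976 to 105743059, with no GATA match and a GC content of 61.9% and 67.9%.

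GATA sequence was more frequent in desert peaks than in other asynchronous peaks, on a surround that was also richer in it. A match was present in 95.6% of asynchronous desert peaks, against 92.6% of all other asynchronous peaks, a difference of 3.04 points (2.28 to 3.71), and against 87.3% of promoter peaks. At least 2 matches were found in 73.2% against 65.5%, a difference of 7.71 points (6.18 to 9.19). The mean was 3.03 ± 4.39 matches per desert peak (SD over 3836 peaks), or 7.22 per kb, against 2.44 ± 2.74 and 5.83 per kb elsewhere. The median was 2 matches per peak in both groups, with quartiles at 1 and 3. Peaks with runs of GATA units, described below, are part of both means, and their part in the difference of means was not tested. The flanks of desert peaks held a match in 59.6% (58.5% to 60.7%) and those of other peaks in 51.4% (51.0% to 51.8%), so peaks exceeded flanks by a ratio of 1.61 in deserts and 1.80 elsewhere. Desert peaks were also poorer in GC, with a median of 43.0% against 44.3% for all other and 47.3% for promoter peaks, and base composition moves with the number of GATA strings. Its part in the difference was not tested. Mitotic desert peaks held a match in 92.4%, 3.69 points below other mitotic peaks (-8.15 to -0.609), and the 16 mitotic-unique peaks accounted for 9 of the 16 desert peaks without a match.

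The composite of E-box and GATA is the arrangement bound by complexes of GATA factors with TAL1. It was present in 9.83% of asynchronous desert peaks and 1.55% of their flanks (1.29% to 1.85%), a ratio of 6.33, close to the 6.43 of other peaks. In mitotic desert peaks it was present in 11.8% against 6 of 422 flanks, 1.42% (0.524% to 3.07%), a ratio of 8.33. In other mitotic peaks the ratio was 21.2, with 18 of 2874 flanks, 0.626% (0.372% to 0.988%). These ratios rest on few flanks with a match. Between mitotic desert peaks and other mitotic peaks, the share with the composite differed by -1.44 points (-5.58 to 3.88). Beyond 500 kb from a TSS, 95 of 761 asynchronous peaks held it, 12.5% (10.2% to 15.0%), against 8.05% to 9.93% in the 4 nearer distance ranges. The intervals of these nearer ranges had upper limits of 10.2% to 12.6%, and their shares had no steady order with distance. Of the mitotic peaks, 10 of 45 beyond 500 kb held the composite, 22.2% (11.2% to 37.1%). In the nearer ranges 6.45% to 14.7% of mitotic peaks did, with intervals that overlap that one. Over all asynchronous desert peaks, the difference of 1.46 points from other asynchronous peaks (0.496 to 2.49) was small beside the level itself. With 7 to 9 bases between the parts, the share in asynchronous desert peaks was 27.3% and in their flanks 4.53%.

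Strings of partner factors were found in asynchronous desert peaks at 1.69 to 2.00 times their share in the flanks. The AP-1 string TGACTCA, bound by FOS and JUN, was present in 14.1% of asynchronous desert peaks and 7.07% of flanks. For the ETS core AGGAAGT the shares were 15.8% and 8.57%, for the RUNX core AACCACA 13.8% and 8.13%, and for the E-box CAGCTG 23.8% and 13.4%. The differences from near intergenic peaks had intervals that include 0 for all 4 strings, at 0.180 points for AP-1 (-1.12 to 1.52) and 0.597 for ETS (-0.762 to 2.00). The KLF string CCACACCC went the other way, with 2.97% of desert peaks against 4.20% of other peaks and 3.0% of desert flanks, so it was no more frequent in desert peaks than beside them. In mitotic desert peaks AP-1 was present in 15.6% against 5.45% of flanks, RUNX in 12.3% against 5.21%, ETS in 10.9% against 5.69% and the E-box in 18.5% against 10.2%. Strings can overlap one another in a peak and were counted on both strands, and a match does not show that the factor binds there.

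Bookmarked desert peaks held more of most strings than desert peaks that were not bookmarked, and they were also wider. The composite was present in 15.9% against 9.50% (difference 6.39 points, 1.82 to 12.2), AP-1 in 24.1% against 13.6% (10.5 points, 4.92 to 17.1) and RUNX in 20.5% against 13.4% (7.11 points, 1.91 to 13.4). Within the widest 3 deciles, where the median widths were 721 and 594 bp, the differences were 4.68 points for the composite (-0.615 to 11.3), 10.2 for the composite with 7 to 9 bases between its parts (2.42 to 18.3), 7.63 for AP-1 (1.11 to 15.1), 2.30 for RUNX (-3.74 to 9.44) and 0.0543 for GATA (-3.0 to 1.30). Among wide desert peaks the intervals of AP-1 and of the composite with 7 to 9 bases lay above 0, and those of the composite with 8 bases, RUNX and GATA included it. GATA presence stood at 98.8% in both wide groups, so it had almost no room to differ. GATA number did differ over all desert peaks. Of the bookmarked ones 90.8% carried more than 1 match, against 72.2% of the rest (18.5 points, 13.4 to 22.2). Match number was not compared among wide peaks alone. Bookmarked desert peaks also had closer neighbours, with another asynchronous peak within 10 kb for 56.4% against 43.5%, a difference of 12.9 points (5.73 to 19.9).

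Runs of at least 3 GATA units, a simple repeat, marked a set of asynchronous peaks that was almost absent from the mitotic list, in deserts and elsewhere. Such a run was present in 117 asynchronous desert peaks, 3.05%, against 1.38% of other asynchronous peaks (difference 1.67 points, 1.15 to 2.28). The surround of desert peaks was also richer in runs, with 0.235% of desert flanks (0.139% to 0.371%) against 0.0913% of other flanks (0.0680% to 0.120%). Peaks exceeded flanks by a ratio of 13 in deserts and 15.1 elsewhere. The 117 desert peaks had a median of 19.0 matches and up to 83, and a median width of 364 bp. None of the 117 was bookmarked, which allows a share of up to 3.10%, beside 5.08% for all desert peaks. Of the 211 mitotic desert peaks none held a run, and of the 1437 other mitotic peaks 3 did, 0.209%. The difference was -0.209 points (-0.612 to 1.58). In other asynchronous peaks with a run, 5 of 385 were bookmarked. In the widest 3 deciles, 0 of 44 desert peaks with a run were bookmarked (upper limit 8.04%) against 170 of 1101 without one, or 15.4% (13.4% to 17.7%). Of the desert peaks with at least 7 GATA matches and no run, 22 of 79 were bookmarked. How uniquely reads map in such repeats was not measured, and its part in this was not tested. The length of such a repeat in K562 can differ from that in the reference.

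Desert peaks stood farther apart than other peaks. The nearest asynchronous peak of an asynchronous desert peak lay at a median of 13128 bp, against 8719 bp for near intergenic and 8645 bp for promoter peaks. Of the desert peaks 44.1% had another within 10 kb, against 52.5% of other peaks (desert minus other -8.38 points, -10.1 to -6.70), and 15.8% had none within 100 kb, against 4.99%. At the shortest range the groups were closer, with a neighbour within 1 kb for 6.75% and 7.69%. Mitotic desert peaks had no other mitotic peak within 100 kb in 69.2% of cases and other mitotic peaks in 68.6%, a difference of 0.579 points (-6.36 to 6.91).

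The peaks farthest from a protein-coding TSS lay near gaps of the assembly. All 3 of the farthest asynchronous peaks lay on chromosome 21, 5271.3 to 5277.7 kb from the start of TPTE, a testis phosphatase gene, and 27.6 to 34.0 kb from a run of at least 50 kb of unknown sequence. None was bookmarked. Of the mitotic peaks, the farthest, from 6362902 to 6363153 on chromosome 21, was 4158.5 kb from TPTE and had 3 GATA matches and an asynchronous partner. The second, before OR11H1 on chromosome 22, was mitotic-unique. Those farthest inside sequence without such gaps nearby were a peak of CDH9–CDH6, 1968.8 kb from a TSS in the lncRNA gene LINC02109, with 2 matches, and one of NUDT12–EFNA5 on chromosome 5, 1668.0 kb away, with 4. A peak of ZNF337–DEFB115 on chromosome 20, 1475.5 kb away and 256.2 kb from a gap, held 2 GATA matches and 1 composite. In all, 166 asynchronous desert peaks lay within 1 Mb of such a gap and 8 of them, 4.82%, were bookmarked.

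Peaks in lncRNA genes were denser than in the remaining desert sequence. LncRNA genes covered 275.8 Mb of the deserts, 29.1%, and held 5.84 asynchronous peaks per Mb against 3.32 outside them. Bookmarking was 5.65% inside (4.57% to 6.89%) and 4.67% outside (3.83% to 5.63%), a difference of 0.980 points (-0.423 to 2.45). In total 738 lncRNA genes held an asynchronous and 86 a mitotic desert peak. MIR3681HG and DIRC3-AS1 held most, with 30 asynchronous desert peaks each, and 9 and 4 mitotic ones. PVT1, the lncRNA gene beside MYC, held 21 and 2, CCDC26 held 17 and none, and LINC01331 held 24 and none. Starts of lncRNA transcripts, which can lie inside a lncRNA gene, were within 1 kb of 170 asynchronous desert peaks, 4.43% against 4.13% of other peaks. They were within 1 kb of 12 mitotic desert peaks, 5.69%, against 4.66% of other mitotic peaks (difference 1.02 points, -1.67 to 5.13). Of these 12, 11 shared bases with an asynchronous peak, 91.7%, close to the 92.4% of all mitotic desert peaks. Among the 11 were peaks at LINC02772 between ETV3 and FCRL5, at LINC01132 beside IRF2BP2 and at LINC02026 beside HES1, the Notch target gene. Whether these lncRNAs are transcribed in these cells was not measured.

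Genes of blood formation flanked a number of deserts with GATA2 peaks. Of 63 haematopoietic genes listed, 17 flanked a desert, 13 a desert with an asynchronous peak and 6 a desert with a mitotic peak. Over all 20007 protein-coding gene names of the annotation, 17.1% flanked a desert, 8.38% one with an asynchronous peak and 1.43% one with a mitotic peak. The 16 deserts beside the listed genes held 137 asynchronous peaks, and the MYC–GSDMC desert alone held 50. Of the 137, 13 were bookmarked, 9.49% (5.15% to 15.7%), against 5.04% of all asynchronous peaks. The interval treats peaks of 1 desert as independent. This gene list and the developmental one below were chosen with earlier results of these data known, so the share describes that choice. JUN, an AP-1 subunit, flanked a desert towards FGGY with 20 asynchronous peaks at 64.0 per Mb, the densest of the 16, and 1 was bookmarked. ZEB2, a zinc-finger repressor of blood and neural crest cells, flanked one with 17 and 2 mitotic peaks. IKZF2, an Ikaros-family factor of lymphocytes, flanked one towards ERBB4 with 5 asynchronous peaks, of which 3 were bookmarked. KIT, the stem cell factor receptor, flanked the 213.7 kb desert from PDGFRA with 8 and 1. BCL11A, the repressor of fetal globin, flanked one with 5 asynchronous peaks, of which 1 was bookmarked, and 2 mitotic peaks. LMO4, a LIM-only adaptor, lay between a pair of deserts with 11 and 2 asynchronous peaks and 1 mitotic peak each.

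The other listed haematopoietic genes that flank a desert with an asynchronous peak had no mitotic peak in those deserts. Peaks outside deserts were not counted for any listed gene, so these numbers do not show whether a gene is bookmarked. The study reports RUNX1 among its bookmarked genes. CEBPB, a leucine-zipper factor of myeloid cells, had 7 asynchronous peaks and none mitotic in the desert towards PTPN1. MEIS1, a homeobox partner of HOX proteins, and CDK6, a cell-cycle kinase, had 3 each, and MECOM, CCND2 and RUNX1 had 1 each, none of them bookmarked. Of 38 developmental regulators listed for lying beside large deserts, 35 flanked a desert, 24 one with an asynchronous peak and 4 one with a mitotic peak. Their 33 deserts held 108 asynchronous peaks, of which 4 were bookmarked, 3.70% (1.02% to 9.21%). The largest numbers were 16 in MCTP2–NR2F2, beside an orphan nuclear receptor gene, and 11 in SLC35B3–TFAP2A, beside the AP-2 alpha gene. Genes that flank a desert are its neighbours on the chromosome, and no peak was tied to a target gene here.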

How the data were processed

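Peaks came from GATA2 ChIP-seq of asynchronous and of mitotic K562 cells, 1 library each. By the submitters' processing notes and the study's methods, the authors aligned reads to hg38 with BWA 0.7.12, kept uniquely mapped reads, called peaks with MACS2 2.1.0 and Genrich 0.6.1 and removed blacklisted peaks. Thresholds, and how both callers were combined, are not given in the sources used here. The deposited values are peak positions in bp, in 3 columns (chromosome, start, end), with no score, height, p-value or count. The depth of the libraries is therefore unknown, and a site absent from a list may be under its limit of detection. The input libraries were not used here.

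Positions are on hg38 and are given 1-based. TSSs came from protein-coding transcripts of protein-coding genes in GENCODE release 44 and gene bodies from its protein-coding genes. A desert is a stretch in which a midpoint meets the rule, named by the nearest protein-coding genes on both sides, and its length counts known bases in densities. Strings were matched on both strands, without overlap within a strand, in the whole peak and in equally wide windows 5 kb away on both sides (flanks). No test was made between conditions, and peaks of 1 library are not replicates. The named genes are those that flank the 8 deserts with most asynchronous and with most mitotic peaks, the 5 mitotic and 3 asynchronous peaks farthest from a TSS, the mitotic-unique peaks (10 widest, of which 1 is not reported here) and the haematopoietic genes that flank a desert with a peak. The peak class and both gene lists were chosen with earlier results of these data known. Alternatives changed the distance, the transcripts and genes counted, the overlap rule, the peaks used and the strings. On simulated data the steps were tested with 2252 desert peaks planted among 4000, 400 shared peaks and 768 GATA sites, all of which were recovered. Python 3.11.15, pandas 2.3.3, scipy 1.17.1, statsmodels 0.14.6, pysam 0.24.0 and matplotlib 3.10.9 were used.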

Additional observations from a re-analysis of the deposited data

How the results depend on the processing

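Of 143 values recomputed under 16 alternatives, 108 stayed within the 95% interval of the reported value (for counts, within 1.5 times) and 35 moved outside it. The difference in bookmarked share between desert and other asynchronous peaks, whose reported interval includes 0, was -0.255 points with lncRNA genes added (-1.48 to 1.34). Differences in motif and mitotic-unique shares were not recomputed as differences. The size of the class follows the distance by construction. At 50, 200 and 500 kb there were 6072, 2183 and 761 asynchronous desert peaks (19.1%, 6.87% and 2.39% of the list) and 369, 133 and 45 mitotic ones (22.4%, 8.07% and 2.73%). With lncRNA genes added there were 919 asynchronous (2.89%) and 47 mitotic peaks (2.85%). With every transcript of protein-coding genes the asynchronous share was 11.2%. Density was 2.13 per Mb at 500 kb and 2.33 with lncRNA genes.

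At 50 kb the bookmarked share of desert peaks was 0.922 points above that of other peaks (0.301 to 1.59), an interval that excludes 0. The bookmarked share was 2.11% with reciprocal overlap of 50%, where 37.9% of mitotic desert peaks overlapped, and 9.79% among asynchronous peaks no narrower than the median. With midpoints within 200 bp, 85.8% of mitotic desert peaks had a partner. A GATA match was found in 96.3% of asynchronous peaks at 500 kb, in 88.7% in the central 200 bp and in 91.3% with GATAA only. GATA runs were in 4.34% at 500 kb and 4.03% with lncRNA genes. The composite was in 12.5% of asynchronous and 22.2% of mitotic peaks at 500 kb, in 11.5% of asynchronous peaks with lncRNA genes, in 7.27% in the central 200 bp, and with 7 to 9 bases in 27.3% and 32.2%. Causes of the other changes were not tested. No paired analysis was possible because each condition has 1 library. Peak lists without read counts limit any statement on sites that were not called.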
